A study of Rattus norvegicus with 2 samples.

Results

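The transporters described here carry sugars, sugar phosphates, nucleotide sugars, citrate, lactate and other monocarboxylates, bicarbonate, sulfate, protons and chloride across the membranes of liver cells. They were taken by name, as genes of the solute carrier families SLC2, SLC4, SLC5, SLC9, SLC12, SLC13, SLC16, SLC26 and SLC37 and of subfamily A of SLC35, each measured by a probe set annotated to 1 gene. Slc16a10, an aromatic amino acid carrier, was left out. This gave 67 genes with 85 probe sets, of 14217 genes in all, and each gene was represented by its probe set of highest mean signal. Of the 67, 66 are carriers in 10 groups by substrate. The other 1, Slc4a1ap, was matched by name and is an adaptor protein, not a carrier. Slc4a1ap had a signal of 162.3 in the olive oil and 148.1 in the fasted array.

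Liver RNA of male Wistar rats, 2 months old and weighing 250 to 300 g, was hybridized to 2 Affymetrix arrays. The olive oil array came from rats fasted for 18 h, given 5 ml of olive oil as a bolus (16 ml per kg) and killed 4 h later, and the fasted array from rats fasted for 18 h that had no fat meal. Both groups thus shared strain, sex, age and a fast of 18 h, and the labels give no number of rats per array. The olive oil rats were killed 4 h after the bolus, so the time without other food may differ between the groups. Such a difference cannot be told apart from the oil. With 1 array per group there is no replicate check, so every difference below compares 2 arrays and has neither a p-value nor a standard deviation over animals.

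Solute carriers of these families are membrane proteins that move small molecules down a gradient or by coupling to sodium, protons or chloride. In hepatocytes, GLUT2 (Slc2a2) lets glucose in after a meal and out during a fast, the glucose 6-phosphate translocase (Slc37a4) feeds the phosphatase that frees glucose in the endoplasmic reticulum, and MCT1 (Slc16a1) moves lactate, pyruvate and ketone bodies. NaCT (Slc13a5) takes up citrate from the blood, a substrate for fatty acid and cholesterol synthesis, while bicarbonate carriers and sodium-proton exchangers set cell pH and take part in bile formation.

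Hepatocyte markers were bright on both arrays. Over 9 marker genes the summed signal was 136909.8 in the olive oil and 134992.2 in the fasted array, and all 9 lay within 1.5-fold. Macrophage markers summed to 5885 in the olive oil and 5990.3 in the fasted array over 7 genes, endothelial markers to 4377.8 in the olive oil and 3921 in the fasted array over 5, and stellate cell and fibroblast markers to 2944.8 in the olive oil and 2940 in the fasted array over 7. The median signal over all probe sets was 44.7 in the olive oil and 42.5 in the fasted array. The beta-actin ratio of 3' to 5' signal, which rises as RNA breaks down, was 3.20 in the olive oil and 2.63 in the fasted array. The same ratio for GAPDH was 1.34 in the olive oil and 1.28 in the fasted array. The part of RNA quality in the differences below was not tested. In RNA of whole liver, fewer cells of a type and less RNA per cell cannot be told apart.

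A gene was called measured when its log2 signal, averaged over the arrays, was at or above the median probe set, a signal of 41.4. A floor of 12.8, the 25th percentile of the signals, was set before logs were taken. Of the 67 genes, 37 were measured and 30 were too dim. Slc13a5, Slc16a6 and Slc26a8 were at least 2-fold higher in the olive oil array, and Slc13a4 was at least 2-fold lower. These 4 are 10.8% of the 37, where 6.19% of all 9208 measured genes were at least 2-fold apart (3.25% higher and 2.94% lower). At a size of 1.5-fold, 7 were higher, 4 lower and 26 between, together 29.7%, against 19.6% of all measured genes (9.46% higher and 10.1% lower). With the arrays centred on their medians, 701 genes among all measured passed 1.5-fold upwards and 1172 downwards, against 871 and 934 without centring, while the same 11 transporter genes passed. At 2-fold, centring left 3 transporter genes, without Slc26a8, or 8.11%, against 6.30% of all measured genes (248 higher and 332 lower). The median log2 difference, olive oil minus fasted, was -0.02 over the 37 genes and -0.01 over all measured genes, with 18 differences above 0 and 19 below among the 37, and 4445 above and 4760 below among all. Among 143 other measured genes named Slc, 10 were at least 2-fold higher and 6 lower, together 11.2%, and 17 were at least 1.5-fold higher and 17 lower, together 23.8%. The transporters' share at 2-fold thus lay close to that of the other solute carriers.

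**Figure D1:**
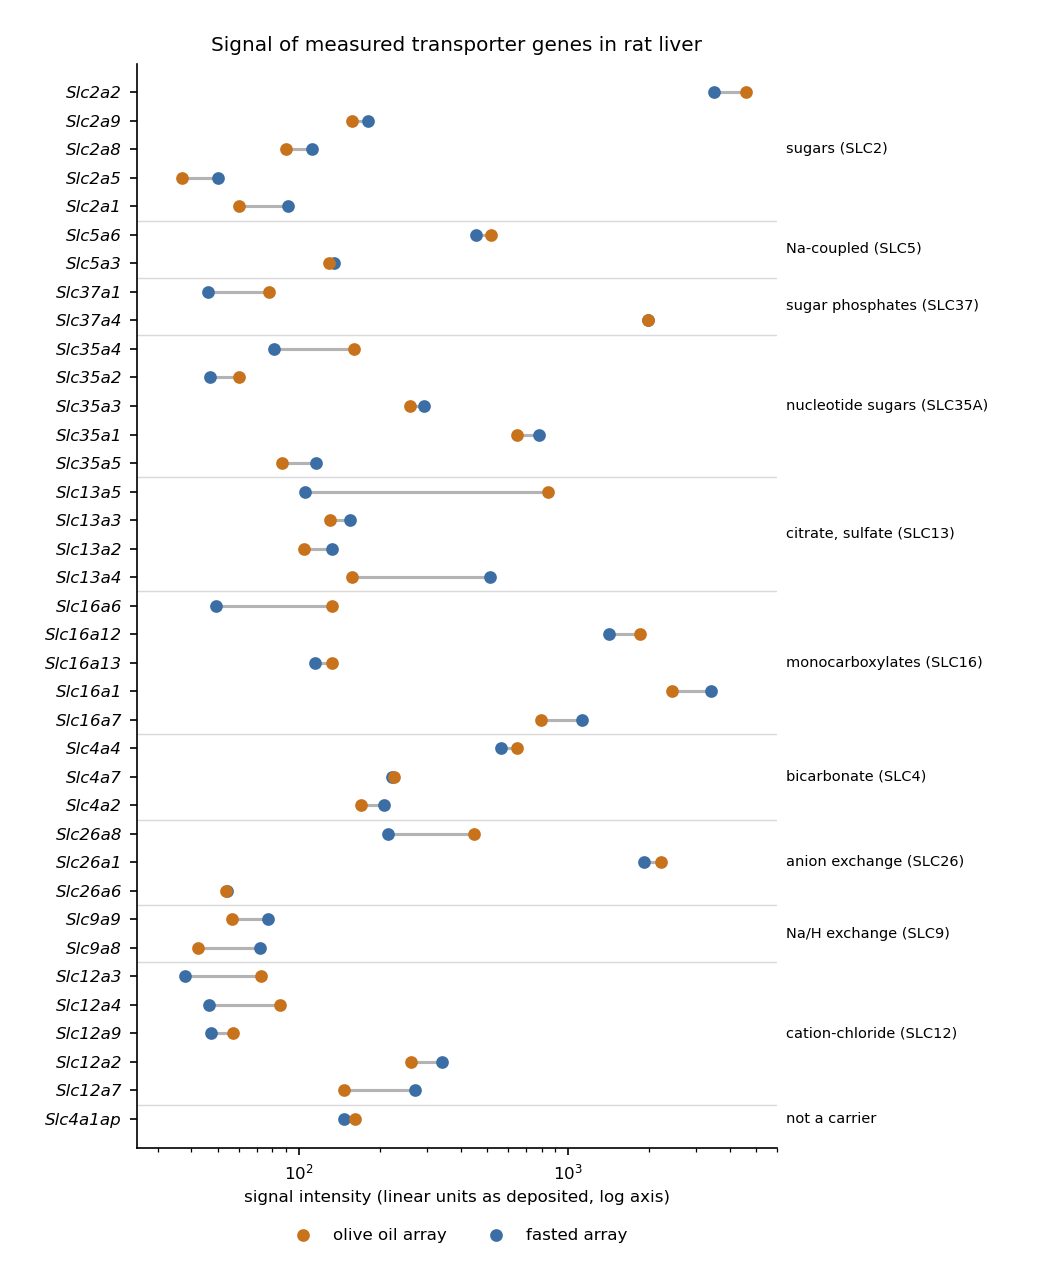
Signal intensity of the 37 measured genes on the olive oil array (orange) and the fasted array (blue), on a log axis, with a grey line joining the points of a gene and genes grouped by substrate. The longest lines belong to Slc13a5, at 843 in the olive oil and 105.9 in the fasted array, and Slc13a4, at 158.1 in the olive oil and 515.4 in the fasted array; signals of different probe sets are not on a common scale.

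**Figure D2:**
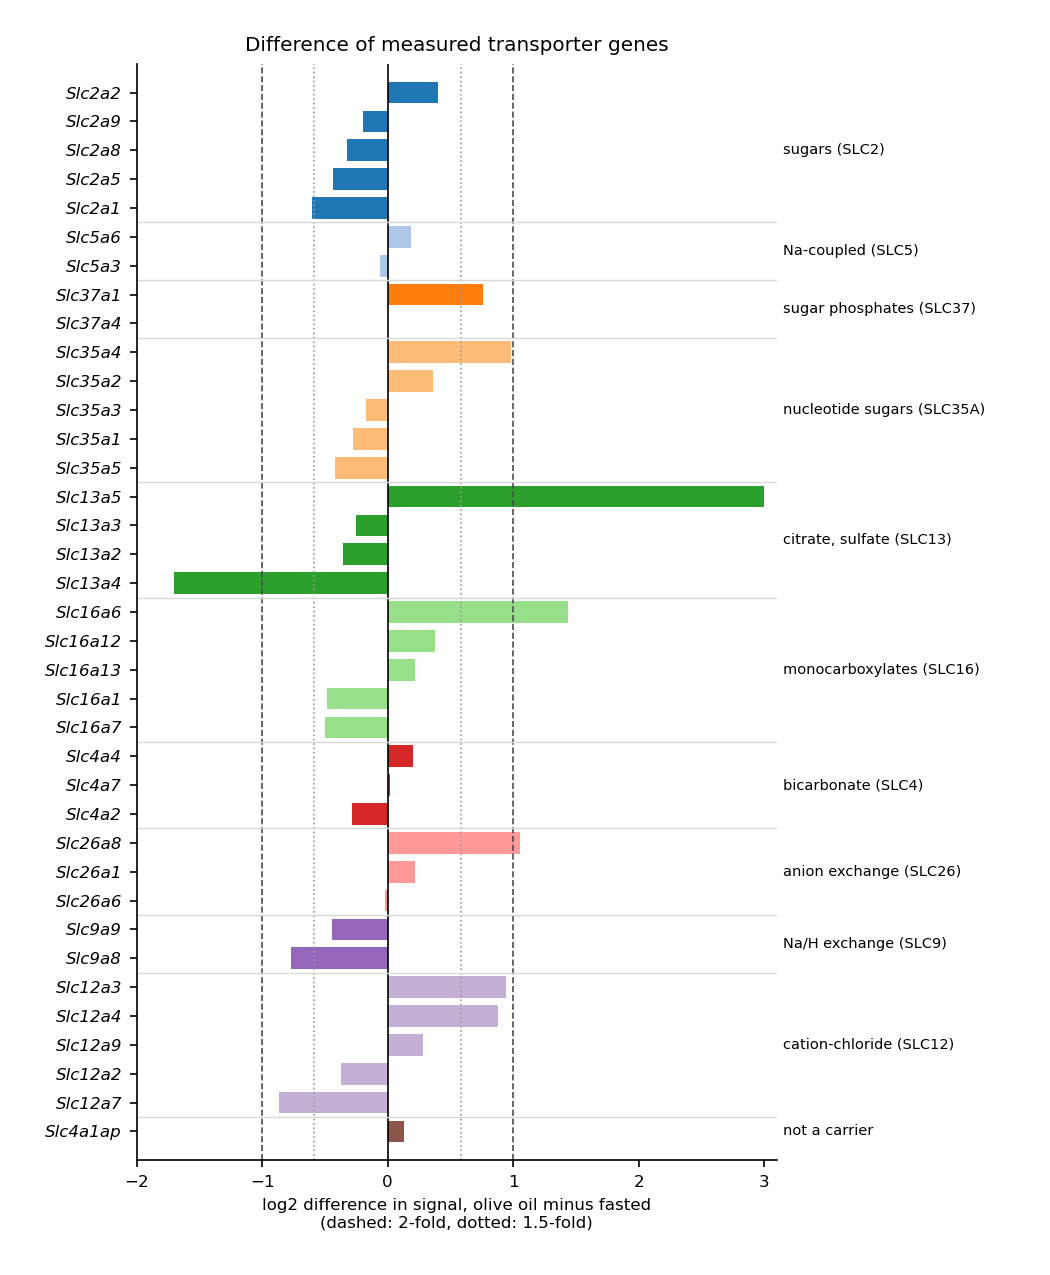
Log2 difference in signal, olive oil minus fasted, of the 37 measured genes by substrate group, 1 bar per gene, with dashed lines at 2-fold and dotted lines at 1.5-fold. Only Slc13a5, Slc16a6, Slc26a8 and Slc13a4 pass a dashed line, and 26 bars end inside the dotted lines.

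The citrate, dicarboxylate and sulfate carriers of SLC13 held both the highest and the lowest difference of the 37. Slc13a5 had a signal of 843 in the olive oil and 105.9 in the fasted array, 7.96-fold higher, and only 4 of 9208 measured genes had a larger increase. It encodes NaCT, the sodium-coupled citrate carrier of the hepatocyte's blood-facing membrane. Slc13a4, a sodium-sulfate carrier best known from placenta and brain, went the other way. Its signal was 158.1 in the olive oil and 515.4 in the fasted array, 3.26-fold lower, and 39 genes had a larger decrease. Each was represented by a single probe set, so that no second measurement on the arrays could be set beside it. Both signals of both genes stood above the value of 41.4 used for the filter.

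The dicarboxylate carriers of the same family stayed within 1.5-fold. Slc13a2 (NaDC1), which takes up succinate and citrate in kidney and gut, had 104.6 in the olive oil and 133.6 in the fasted array, a log2 difference of -0.35. Slc13a3 (NaDC3), its high-affinity relative, had 131.1 in the olive oil and 155.8 in the fasted array, a log2 difference of -0.25. The 2 genes thus lay slightly on the lower side, while Slc13a5 was on the upper. Slc13a1, the sulfate carrier of kidney, was not measured, at 19.3 in the olive oil and 1.6 in the fasted array. The median of the 4 measured genes, -0.30, has little meaning for a family whose members lay between -1.70 and 2.99.

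Genes listed for the supply of citrate and for the cytosolic steps around its use did not differ on the scale of Slc13a5. Of 9 measured genes of this list, 0 were 2-fold apart. At least 1.5-fold higher was 1, or 11.1%, where 9.46% of all measured genes were. That gene was Acaca, acetyl-CoA carboxylase, at 527.1 in the olive oil and 321.9 in the fasted array, 1.64-fold higher. Acly, which splits citrate into acetyl-CoA, had 689.9 in the olive oil and 736.3 in the fasted array, a log2 difference of -0.09. Slc25a1, which exports citrate from mitochondria, had a difference of -0.04, and Me1, malic enzyme, one of -0.57. Cs, the citrate synthase of mitochondria, was 1.41-fold higher and Idh1, the cytosolic isocitrate dehydrogenase, 1.41-fold lower.

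The 250 bases before the annotated start of Slc13a5 and Slc13a4 are given because these genes had the highest and the lowest difference. Sequences and gene starts are those of RefSeq on the rat assembly GRCr8, written 5' to 3' on the strand of the gene. Capitals mark matches, on either strand, to the motifs listed further on, which here are all CCAAT or its complement ATTGG.
Slc13a5 upstream region, GRCr8 chr10:57388849-57389098, minus strand: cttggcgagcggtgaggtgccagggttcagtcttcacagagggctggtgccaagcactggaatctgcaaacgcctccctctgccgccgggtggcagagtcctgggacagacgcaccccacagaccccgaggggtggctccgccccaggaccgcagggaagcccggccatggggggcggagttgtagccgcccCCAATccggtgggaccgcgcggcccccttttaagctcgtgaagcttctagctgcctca
Slc13a4 upstream region, GRCr8 chr4:64955987-64956236, minus strand: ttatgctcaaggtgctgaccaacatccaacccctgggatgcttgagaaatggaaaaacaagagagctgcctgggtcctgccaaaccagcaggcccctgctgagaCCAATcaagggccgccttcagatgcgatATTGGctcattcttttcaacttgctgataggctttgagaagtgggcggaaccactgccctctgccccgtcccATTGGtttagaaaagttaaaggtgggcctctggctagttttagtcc
The Slc13a5 region had 67.6% G and C and 1 CCAAT, from -58 to -54 relative to the start. The Slc13a4 region had 52% G and C and 3 matches, beginning at -146, -118 and -46. Over 27457 promoters of the table, the median G and C content was 52%, and 34.3% held CCAAT on either strand. These are matches of letters, not shown to be bound.

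Among the monocarboxylate carriers of SLC16, the most prominent difference was in Slc16a6, while the lactate carriers went slightly the other way. Slc16a6 encodes MCT7, which in zebrafish liver exports the ketone body beta-hydroxybutyrate. Its brighter probe set had 133.4 in the olive oil and 49.4 in the fasted array, 2.70-fold higher, and 107 measured genes had a larger increase. A second probe set had 121.9 in the olive oil and 29.7 in the fasted array, 4.10-fold higher. It was thus the one gene of the 4 past 2-fold with more than 1 measured probe set, and both were higher in the olive oil array.

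Slc16a1, encoding MCT1, had 2436.5 in the olive oil and 3407.2 in the fasted array, 1.40-fold lower. Its other probe set was below 12.8 on both arrays. Slc16a7, encoding the high-affinity lactate and pyruvate carrier MCT2, had 798.3 in the olive oil and 1130.3 in the fasted array, 1.42-fold lower. Both lay on the lower side without reaching 1.5-fold. Slc16a12, encoding a creatine carrier, had 1850.9 in the olive oil and 1427.8 in the fasted array, a log2 difference of 0.37, and 0.08 on its second probe set. Slc16a13 had log2 differences of 0.21 and -0.56 on its 2 measured probe sets, so that its direction is not settled. Of the 5 measured genes of the family, 1 was at least 2-fold higher and the other 4 were within 1.5-fold. Their median was 0.21, but -0.17 when the probe sets of a gene were averaged.

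Slc16a3 (MCT4, a lactate exporter of muscle and other glycolytic cells), Slc16a8 (MCT3, of the retinal pigment epithelium) and Slc16a9 (MCT9, linked to carnitine) were not measured. Slc16a9 had 18.1 in the olive oil and 35.5 in the fasted array, and Slc16a3 had 5.7 in the olive oil and 26.3 in the fasted array. Bsg and Emb, the chaperones that bring MCT proteins to the cell surface, were both measured and differed by -0.02 and -0.08 on the log2 scale. Bsg had a signal of 3149.1 in the olive oil and 3186.5 in the fasted array. Of 11 measured genes of lactate and pyruvate metabolism, 2 were higher by 1.5-fold or more and 1 was lower by that size. Together these are 27.3%, where 19.6% of all measured genes passed 1.5-fold, and 0 of the 11 were 2-fold apart. Higher were Pdp2, a phosphatase that activates pyruvate dehydrogenase, at 1.84-fold, and Pdk4, a kinase that shuts it off, at 1.72-fold. Lower was Pdp1, a second such phosphatase, at 1.75-fold. Ldha, lactate dehydrogenase A, had 11634.8 in the olive oil and 10653.4 in the fasted array, a log2 difference of 0.13, and the mitochondrial pyruvate carriers Mpc1 and Mpc2 differed by -0.01 and -0.02.

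**Figure D3:**
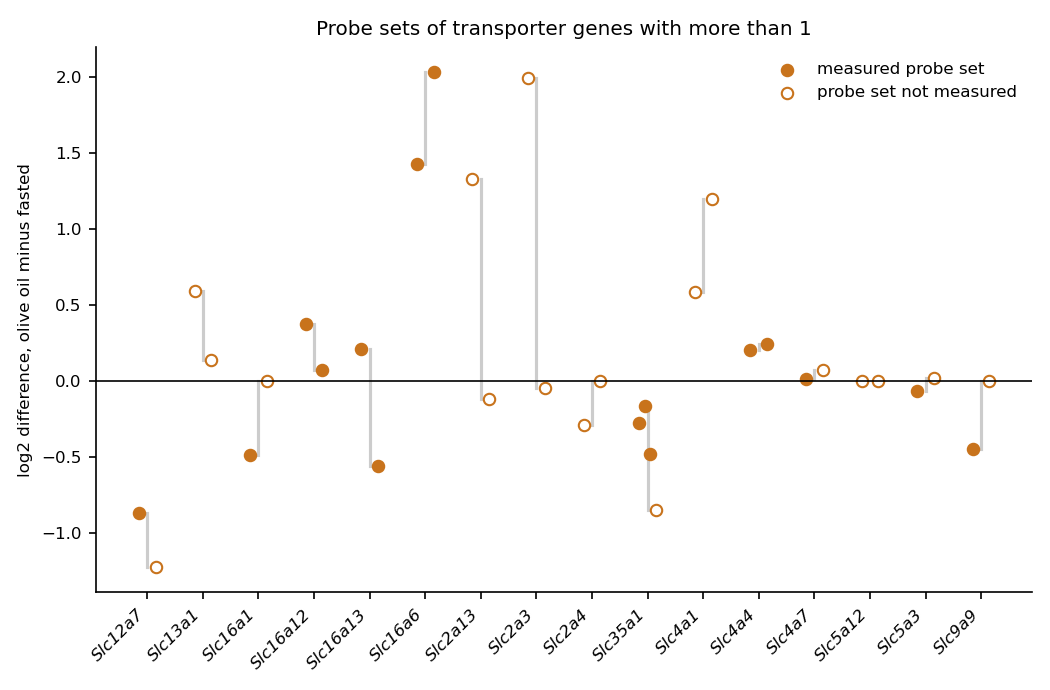
Log2 difference in signal, olive oil minus fasted, of every probe set of the 16 transporter genes that had more than 1, filled where the probe set was measured and open where it was not. Both probe sets of Slc16a6 lie at 1.43 or above, those of Slc16a13 lie on both sides of 0, and open points scatter widely for Slc2a3 and Slc2a13.

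Of the facilitated sugar carriers of SLC2, 1 of 5 measured genes was at least 1.5-fold apart, or 20%, where 19.6% of all measured genes were. The median size of the log2 difference, without its sign, was 0.40 over the 5 genes and 0.26 over all measured genes. Slc2a2, encoding GLUT2, had 4610.7 in the olive oil and 3499.1 in the fasted array, 1.32-fold higher. The other 4 measured members lay on the lower side. Slc2a1, encoding GLUT1, the basal glucose carrier of most tissues, had 60.3 in the olive oil and 91.6 in the fasted array, 1.52-fold lower and just past the 1.5-fold line. Slc2a9, encoding a urate carrier, had 158.7 in the olive oil and 181.6 in the fasted array, a log2 difference of -0.19. Slc2a8, an intracellular carrier, and Slc2a5, the fructose carrier GLUT5, had log2 differences of -0.32 and -0.43. The median over the 5 genes was -0.32, with 0 of them 2-fold apart. Slc2a5 was dim, at 37 in the olive oil and 50 in the fasted array, just inside the filter. Slc2a4, the insulin-responsive carrier GLUT4 of muscle and fat, was just outside it, at 36.5 in the olive oil and 44.5 in the fasted array.

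Dim members of this family included Slc2a3, encoding GLUT3, a carrier of neurons and also of white blood cells. Its brighter probe set had 51 in the olive oil and 9.4 in the fasted array, and its other one 8.8 in the olive oil and 13.2 in the fasted array, so that the probe sets did not share a direction. Of 7 lymphocyte and neutrophil markers, 3 were measured and 2 of these were at least 2-fold higher, the neutrophil genes S100a9 (253.1 in the olive oil and 62.9 in the fasted array) and S100a8 (75.7 in the olive oil and 32 in the fasted array). The third, Ptprc, a gene of all white blood cells, went the other way, at 108.3 in the olive oil and 158.6 in the fasted array, 1.46-fold lower. The list summed to 507.6 in the olive oil and 324.2 in the fasted array, with Cd3d and Cd79b below 12.8 on both. The part of such cells in the Slc2a3 signal was not tested. Slc2a13, the proton-coupled myo-inositol carrier, had 32.2 in the olive oil and 7.3 in the fasted array on its brighter probe set. Its other one went the other way, at 6.2 in the olive oil and 13.9 in the fasted array. Slc2a6 was below 12.8 on both arrays.

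Slc37a4, the translocase that carries glucose 6-phosphate into the endoplasmic reticulum, had 1987.6 in the olive oil and 1981.7 in the fasted array, the most even of the bright transporters at a log2 difference of 0.0043. Its relative Slc37a1, a sugar phosphate exchanger, had 77.7 in the olive oil and 46 in the fasted array, 1.69-fold higher. Enzymes at the start and end of the hepatic glucose route stayed within 1.5-fold in all 6 measured cases, 5 of them below 0, where 4760 of all 9208 measured genes were, with a median log2 difference of -0.37. Khk, which phosphorylates fructose, was 1.43-fold lower and Gckr, which holds glucokinase in the nucleus, 1.37-fold lower. The gluconeogenic enzymes Fbp1 and Pck1 differed by 0.03 and -0.15. Among 7 measured regulators of sugar carriers and glucose-responsive transcription, Mlx, the partner of ChREBP, was 1.61-fold higher and the other 6 lay within 1.5-fold. These included Hnf4a, a master regulator of hepatocyte genes, at 1.42-fold higher, Txnip, which promotes uptake of glucose carriers from the cell surface, at 1.35-fold higher, and Mlxipl, ChREBP itself, at 1.25-fold lower.

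Of the sodium-coupled SLC5 family, 2 of 8 genes were measured and both were close to equal. Slc5a6, which takes up biotin and pantothenate, the vitamins of carboxylases and coenzyme A, had 521.1 in the olive oil and 457.3 in the fasted array, a log2 difference of 0.19. Slc5a3, which takes up the osmolyte myo-inositol, had 129.7 in the olive oil and 135.5 in the fasted array. The sodium-glucose cotransporters of gut and kidney, Slc5a1 and Slc5a2, were below 12.8 on both arrays, as were Slc5a7, Slc5a11 and Slc5a12. Slc5a5, the iodide carrier of thyroid, had 21.6 in the olive oil and 25.4 in the fasted array.

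All 5 nucleotide sugar carriers of SLC35A, which supply the Golgi with building blocks of glycans, were measured, and 1 stood apart. Slc35a4, a less well known member, had 160.8 in the olive oil and 81.4 in the fasted array, 1.98-fold higher. The other 4 were within 1.5-fold. Slc35a1, the carrier of CMP-sialic acid, had 647 in the olive oil and 782.2 in the fasted array, with log2 differences between -0.48 and -0.16 on 3 measured probe sets. Slc35a3, the carrier of UDP-N-acetylglucosamine, had 258.9 in the olive oil and 292.1 in the fasted array. Slc35a2, the carrier of UDP-galactose, was 1.29-fold higher, and Slc35a5 1.33-fold lower. Of 8 measured enzymes that make nucleotide sugars, 7 had differences below 0, where 4760 of all 9208 measured genes did, with a median of -0.30. Of the 8, 2 were at least 1.5-fold lower, or 25%, where 10.1% of all measured genes were. The 2 were Ugdh, which makes UDP-glucuronate, at 1.59-fold and Ugp2, which makes UDP-glucose, just past the line at a log2 difference of -0.59.

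Bicarbonate carriers of SLC4 were the quietest of the groups with at least 3 measured genes, with differences between -0.28 and 0.20. Slc4a4, the electrogenic sodium-bicarbonate cotransporter NBCe1, had 649.6 in the olive oil and 564 in the fasted array, a log2 difference of 0.20, and one of 0.25 on its other probe set. Slc4a7, the electroneutral cotransporter NBCn1, had 225.8 in the olive oil and 223 in the fasted array. Slc4a2, the chloride-bicarbonate exchanger AE2 that secretes bicarbonate into bile, had 171.1 in the olive oil and 208.1 in the fasted array, a log2 difference of -0.28. Markers of bile duct cells had a summed signal of 255.8 in the olive oil and 313.7 in the fasted array over 6 genes. Those measured, Epcam and Spp1, both lay on the lower side, like Slc4a2, with log2 differences of -0.55 and -0.03. Of the 4 not measured, Krt7 and Muc1 had the higher signal in the olive oil array. None of the 6 was below 12.8 on both arrays, and their part in the difference of Slc4a2 was not tested. Slc4a1, the anion exchanger of red cells, was not measured, at 30.2 in the olive oil and 20.1 in the fasted array. Red cell markers summed to 10212.8 in the olive oil and 10659.9 in the fasted array over 5 genes, with Epb42 below 12.8 on both. Slc4a11, a relative that does not carry bicarbonate, was just under the filter, at 24.9 in the olive oil and 62.9 in the fasted array, and Slc4a3 and Slc4a10 were dimmer. Carbonic anhydrases supply bicarbonate. Genes of this name had log2 differences below 0 in 6 of 8 measured cases, against 4760 of 9208 over all genes. Their median was -0.28. The 8 included Car8 and Car11, relatives without this enzyme activity, at -0.28 and 0.54. Of the 8, 1 was at least 1.5-fold lower, Car7 at 1.54-fold, or 12.5%, where 10.1% of all measured genes were, and 0 were at least 1.5-fold higher. Car3, a bright carbonic anhydrase of male rat liver, had 14411.8 in the olive oil and 16392.5 in the fasted array.

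In the SLC26 family of sulfate, chloride and bicarbonate exchangers, the hepatocyte sulfate carrier was nearly equal and Slc26a8 was higher. Slc26a1, which exchanges sulfate, oxalate and bicarbonate at the blood-facing membrane, had 2231.3 in the olive oil and 1924.3 in the fasted array, a log2 difference of 0.21. Slc26a8, known as an anion carrier of sperm, had 448.5 in the olive oil and 215.9 in the fasted array, 2.08-fold higher on its single probe set, and 264 genes had a larger increase. With the arrays centred on their medians its log2 difference was 0.98, just under 2-fold. Slc26a6 had 53.6 in the olive oil and 54.3 in the fasted array. The other 5 members were not measured, among them Slc26a3, Slc26a4 and Slc26a10, below 12.8 on both arrays, and Slc26a2, the sulfate carrier of cartilage, at 20.1 in the olive oil and 1.9 in the fasted array. Of 6 measured genes of sulfate activation, Papss1, a synthase of the active sulfate donor, was 1.56-fold lower and the other 5 were within 1.5-fold. They included Papss2, the synthase with a signal of 2411.8 in the olive oil and 2471.9 in the fasted array. The region before the start of Slc26a8 is given as that of the third gene past 2-fold with an entry in the table; its capitals mark AGAACA and CCAAT.
Slc26a8 upstream region, GRCr8 chr20:6751185-6751434, minus strand: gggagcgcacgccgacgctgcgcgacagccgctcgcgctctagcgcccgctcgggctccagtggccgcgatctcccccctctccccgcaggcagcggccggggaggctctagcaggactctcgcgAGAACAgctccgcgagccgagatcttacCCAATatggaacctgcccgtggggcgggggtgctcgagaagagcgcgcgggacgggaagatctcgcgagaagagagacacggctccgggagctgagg
This region had 70.8% G and C, with AGAACA from -125 to -120 and CCAAT from -97 to -93.

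Sodium-proton exchangers of SLC9 were on the lower side in both measured cases. Slc9a8, which acts in the Golgi, had 42.2 in the olive oil and 72 in the fasted array, 1.71-fold lower. Slc9a9, of endosomes, had 56.5 in the olive oil and 76.8 in the fasted array, 1.36-fold lower. Slc9a2, an exchanger of epithelia, lay just outside the filter, with 21 in the olive oil and 80.3 in the fasted array. Slc9a3, Slc9a4 and Slc9a5 were dimmer and had between 9.9 and 31 in the olive oil and between 4.6 and 9.6 in the fasted array. Of 4 measured partners of sodium-proton exchangers, Nherf1 had 3259.2 in the olive oil and 1838.3 in the fasted array, 1.77-fold higher. The other 3 lay within 1.5-fold. Nherf1 is a scaffold that anchors the Slc9a3 protein at the cell membrane, and Slc9a3 was not measured.

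Cation-chloride cotransporters of SLC12, which set cell volume and chloride, had 3 of 5 measured genes at least 1.5-fold apart, in both directions. All measured genes passed that size in 19.6% of cases, and those with a signal under 100, as for Slc12a3 and Slc12a4, in 32.2%. Slc12a7, the potassium-chloride cotransporter KCC4, had 148.2 in the olive oil and 270 in the fasted array, 1.82-fold lower, and its dimmer probe set had 8.6 in the olive oil and 29.9 in the fasted array. Slc12a4, the related KCC1, had 85.2 in the olive oil and 46.4 in the fasted array, 1.84-fold higher. Slc12a3, the sodium-chloride cotransporter of the kidney tubule, had 72.7 in the olive oil and 37.8 in the fasted array, 1.92-fold higher. Markers of kidney and gut epithelium summed to 127.3 in the olive oil and 156.9 in the fasted array over 6 genes. Aqp2 and Vil1 were below 12.8 on both. Only Fabp2 of the 6 was measured, at 63.8 in the olive oil and 87.4 in the fasted array. Of the 6, 2 had the higher signal in the olive oil array, Umod and Aqp2. The part of such cells in the Slc12a3 signal was not tested. Slc12a2, the sodium-potassium-chloride cotransporter NKCC1, had 262.9 in the olive oil and 340.3 in the fasted array, 1.29-fold lower. Slc12a9 had a log2 difference of 0.28. Among 7 measured kinases and ubiquitin ligase genes that act on these carriers, Sgk1, a kinase of salt balance, had 626 in the olive oil and 1229.9 in the fasted array, 1.96-fold lower, and the other 6 were within 1.5-fold. Wnk1, the chloride-sensing kinase, had a difference of 0.17 and Oxsr1, the kinase below it, one of 0.02.

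**Figure D4:**
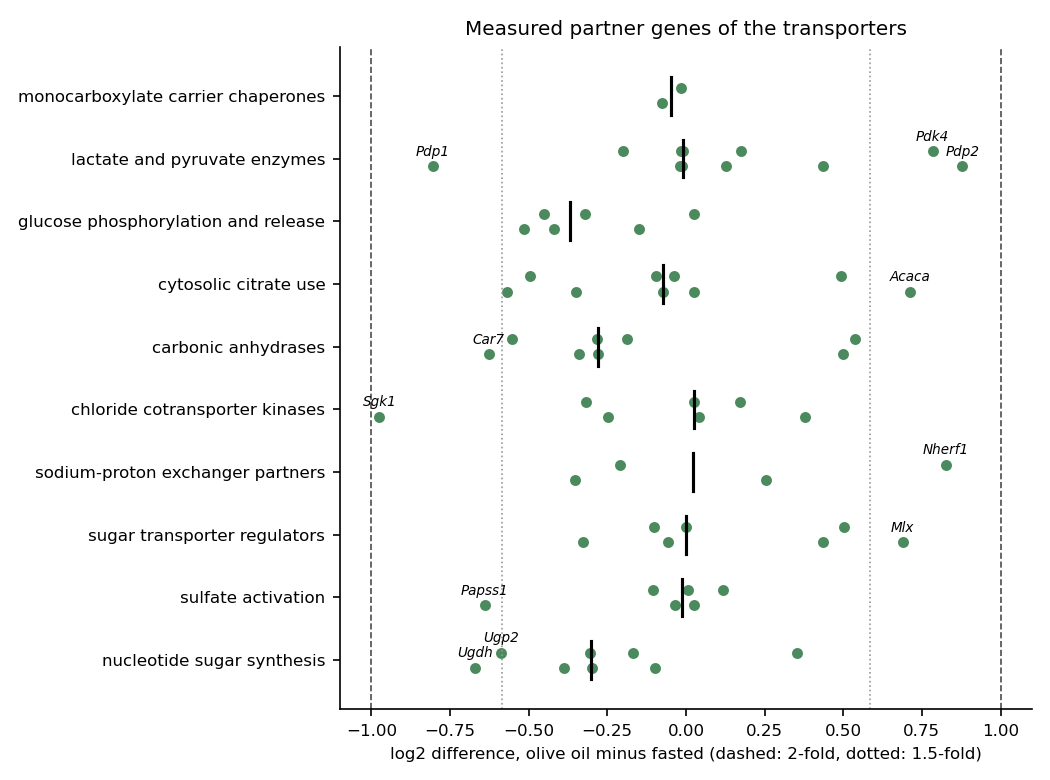
Log2 difference in signal, olive oil minus fasted, of 68 measured partner genes in 10 lists, 1 point per gene, with the list median as a black bar, dashed lines at 2-fold and dotted lines at 1.5-fold. No point passes a dashed line, and the named points are the 11 past a dotted one.

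Over all 10 lists of partner genes, 81 genes were represented and 68 measured. Of these, 0 were at least 2-fold apart, 5 were at least 1.5-fold higher and 6 lower, together 16.2%, where 19.6% of all measured genes were. The median was -0.07, with 24 differences above 0 and 44 below, where all measured genes had 4445 above and 4760 below.

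At 1.5-fold, but not at 2-fold, the share of transporters apart was highest among the dimmest. The 5 genes with a geometric mean signal of 1000 and over, Slc2a2, Slc16a1, Slc37a4, Slc26a1 and Slc16a12, were all within 1.5-fold. For all genes of that brightness, 10.5% of 1589 were at least 1.5-fold apart. Of 21 transporters with a geometric mean signal between 100 and 1000, 5 were at least 1.5-fold apart, or 23.8%, where 17.5% of 5547 genes of like brightness were, and 3 were at least 2-fold apart, or 14.3%, where 4.85% were. Below 100, 6 of 11 were at least 1.5-fold apart, or 54.5%, where 32.2% of 2072 genes were, and 1 was at least 2-fold apart, or 9.09%, where 11.6% were. For measured genes with several measured probe sets the standard deviation of the log2 differences within a gene was 0.35 when pooled over 2290 genes and 0.31 over 5 transporters. This scatter covers probe error and not variation between rats.

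**Figure D5:**
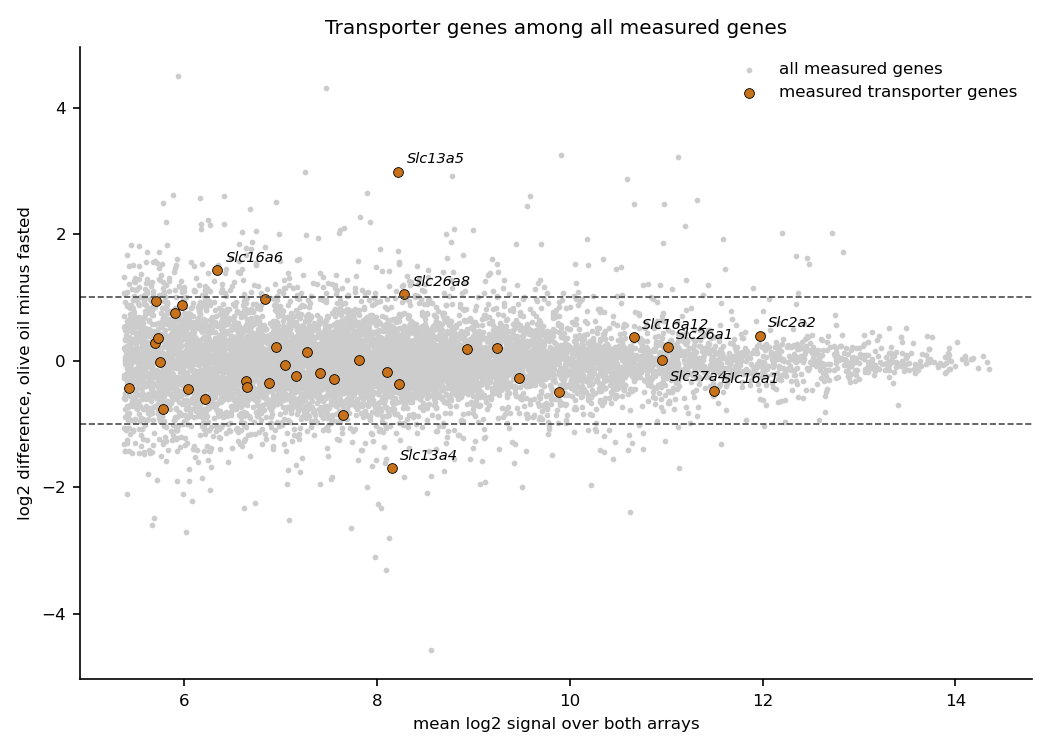
Log2 difference in signal, olive oil minus fasted, against mean log2 signal over both arrays, for all 9208 measured genes (grey) and the 37 measured transporter genes (orange), with dashed lines at 2-fold. Slc13a5 lies near the upper edge of the cloud, while Slc2a2, Slc16a1, Slc37a4, Slc26a1 and Slc16a12, at the bright end, lie between the dashed lines.

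The 30 genes that were not measured had signals between 2 and 51 in the olive oil array and between 0.7 and 80.3 in the fasted array. Of these, 12 were below 12.8 on both arrays, 11 on one and 7 on neither, and 3 lay within 0.2 log2 units of the filter, namely Slc2a4, Slc4a11 and Slc9a2. With the floor applied, 3 were at least 2-fold higher and 3 lower, or 20% of the 30, against 18.3% of all 5009 genes that were not measured. Most of them are carriers known from other tissues, such as Slc12a1 of the kidney, Slc12a5 of neurons, Slc26a4 of thyroid and inner ear and Slc26a5 of the hair cells of the ear. Slc12a8 was below 12.8 on both arrays. The differences of the 30 were not read further.

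Promoter letters were compared for 57 of the 67 genes that have an entry in the table, 33 of them measured. In the 250 bases before the start, both strands were searched for the cAMP response element TGACGTCA, its core TGACG, which lies within the first, the glucocorticoid hexamer AGAACA, the E-box CACGTG, the TATA box TATAAA and the CCAAT box. The E-box was held by 10 of the 57, or 17.5%, and by 5.79% of all 27457 promoters. TGACGTCA was held by 0 of the 57 and by 1.7% of all, TGACG by 12.3% of the 57 and 19% of all, AGAACA by 7.02% of the 57 and 17.1% of all, TATAAA by 8.77% of the 57 and 13.1% of all, and CCAAT by 36.8% of the 57 and 34.3% of all. The G and C content of the 57 was not set beside that of all promoters, and its part in these shares was not tested. The 6 measured genes with an E-box are shown with the 30 bases around it, the E-box in capitals.
Slc12a7, GRCr8 chr1:31354666-31354695, minus strand: ggcaggtgaggtCACGTGgcgggcggggcg
Slc12a9, GRCr8 chr12:25005622-25005651, plus strand: acaccccagacgCACGTGgaagagtttggt
Slc13a3, GRCr8 chr3:174624057-174624086, minus strand: tgcctcaaatccCACGTGagtccagagtgg
Slc13a3, GRCr8 chr3:174623940-174623969, minus strand: ccggggcggttcCACGTGgctcctccccgc
Slc16a1, GRCr8 chr2:194812432-194812461, plus strand: gcagcgcctagtCACGTGgcgggaaggggg
Slc35a5, GRCr8 chr11:69159279-69159308, plus strand: cctcctaggcctCACGTGactcgaatctcc
Slc35a5, GRCr8 chr11:69159302-69159331, plus strand: aatctcccgggaCACGTGacagaagtaggc
Slc5a6, GRCr8 chr6:31040199-31040228, plus strand: gggccggctaccCACGTGtggggatttcta
Among these genes, Slc13a3 and Slc35a5 held the E-box at 2 places. Their log2 differences ranged from -0.87 for Slc12a7 to 0.28 for Slc12a9, with those of Slc16a1, Slc35a5, Slc13a3 and Slc5a6 between, and the 3 genes past 2-fold that have an entry were not among them. A match says nothing about binding, and its absence only that the letters are not in this window.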

How the data were processed

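Liver RNA was measured on 1 array of olive oil-fed and 1 of fasted rats, grouped by the samples' titles. The deposited values are signal intensities on a linear scale, 1 per probe set, made by the authors with Affymetrix Expression Console per the submitters' processing notes, without a named algorithm or version. The mean after trimming 2% at each end was 200.0 in the olive oil and 199.7 in the fasted array, so the arrays had been brought to a common level, which hides any overall shift.

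The 57 control probe sets were set aside. The other 31042 were floored at the 25th percentile of their signals and logged, without further normalization. Symbols came from the platform annotation, updated by gene ID through a RefSeq table of GRCr8. That table held the gene IDs of 20758 of the 20826 probe sets annotated to 1 gene. The update changed the symbols of 0 of the 85 transporter probe sets. A gene was measured when its mean log2 signal reached the median of all probe sets (5.37). Sizes of 2-fold and 1.5-fold took the place of a test. The number of arrays limits the precision.

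Members, partner lists and marker lists were chosen with earlier results of these data known. Measured members at least 1.5-fold apart, the brightest of each group and a list of main hepatic carriers were named, and up to 4 genes of largest difference per partner list; other genes were chosen after their values were seen. Alternatives were other normalizations, floors, filters, probe set rules and sizes; without a floor, values below 0.1 counted as 0.1. Functions were tested on simulated data. Python 3.11.15, numpy 2.4.6, pandas 2.3.3, statsmodels 0.14.6 (loess) and matplotlib 3.10.9 were used.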

Additional observations from a re-analysis of the deposited data

How the results depend on the processing

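The number of transporter genes at least 2-fold higher was 3 and lower 1, and 10 of 11 other settings at that size gave a total within 1.5 times of the 4. Without a filter on dim probe sets, 10 were past 2-fold, 6 higher and 4 lower, of 67. With an offset of 16 in place of the floor 2 were lower, since Slc9a2 then passed the filter. At a size of 1.5-fold 11 passed, 7 higher and 4 lower, and at 3-fold 2 passed, 1 of them higher. The median of the monocarboxylate carriers, 0.21, was -0.24 without a filter, -0.48 with a filter at the 75th percentile and -0.17 with the mean over probe sets. The filters change which genes enter, and the last value comes from Slc16a13, which was -0.17 in that setting. Of 30 named genes, 28 kept their sign in every setting in which they were measured, the exceptions being Slc16a13 and Slc37a4. Slc13a5 ranged from 2.82 to 3.01, Slc13a4 from -1.78 to -1.61, Slc16a6 from 1.19 to 1.74 and Slc26a8 from 0.98 to 1.07. Slc2a1 ranged from -0.68 to -0.50 and fell inside 1.5-fold with the offset. No paired analysis was possible because each group was a single array. Leaving out an array was not possible for the same reason. Differences of dim genes are limited by signal over background.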
